A study of Mus musculus with 2 samples.

Results

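Olfactory receptor genes with transcripts in the mouse testis were followed from spermatogonia to elongating spermatids, and their levels in an Igf2bp1 KO testis were set against those in a WT testis. The genes were chosen by their own counts: every feature with a symbol of the form Olfr followed by a number, pseudogenes left out, that held at least 20 unique molecular identifiers (UMIs, each standing for 1 captured RNA molecule) over all barcodes of both libraries. Of 1094 such features, 124 (11.3%) met this limit, out of 31053 features in all. A further 444 held 1 to 19 UMIs and 526 held none. Just inside the limit stood Olfr195 and Olfr221 with 20 UMIs each, and just outside it Olfr1013 and Olfr1226 with 19 each.

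Droplet single-cell RNA sequencing (10x Genomics) was run on testes of mice aged 8 months. There was 1 library labelled Igf2bp1 KO and 1 labelled Wild type (WT below), and the labels give no treatment for either. IGF2BP1 is a protein that binds mRNAs. The series describes the deletion as conditional, but the sources used here do not give the Cre line, the deleted exons or the strain, and their wording on the number of animals can be read in more than one way. With 1 library per genotype nothing separates the genotype from the animal or the library, so no p-value is given, and every interval below is a 95% interval that covers counting error only.

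Olfactory receptors are G protein-coupled receptors that detect odorants in the nose, where each sensory neuron settles on a single receptor gene out of the whole family. The bound receptor acts through the G protein subunit encoded by Gnal, adenylyl cyclase 3 and a channel gated by cyclic nucleotides. Some receptors are also transcribed in male germ cells, and a human one has been tied to the steering of sperm, but for most of the genes below a role in the testis is not known.

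The Igf2bp1 KO library held 17968 barcodes and 98033324 UMIs, and the WT library 17362 barcodes and 121257944 UMIs. The libraries share 106 barcode sequences. Cells were named by marker genes after clustering without any olfactory receptor, and each class name stands for cells with that class's markers, nothing more. The classes used here held 115 KO and 190 WT spermatogonia, 375 and 1342 late spermatocytes, 444 and 1043 round spermatids, and 777 and 1640 elongating spermatids. Each of the last 3 classes consisted of 2 clusters, called earlier and later. Igf2bp1 itself had 19 UMIs (22.1 CPM, the share of the UMIs of the class scaled to 1e6) in KO spermatogonia and 100 UMIs (48.2 CPM) in WT spermatogonia. It had 2.58 CPM in KO and 3.65 CPM in WT round spermatids, 2.03 and 2.84 CPM over all barcodes, and 1.93 and 1.75 CPM in mixed barcodes. Many barcodes fell outside these classes: 7526 KO and 10828 WT barcodes were empty-like, with medians of 1463 and 1110 UMIs. Another 5664 KO and 323 WT barcodes were mixed and left unnamed, with medians of 6687.5 and 28511 UMIs. The mixed barcodes held 49.1% of the receptor UMIs of the KO library and 7.56% of those of the WT library, so a count over all barcodes weighs them differently in the 2 genotypes.

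Promoter windows are shown for 3 of the genes that the results turn on, the most abundant receptor (Olfr701), one with transcripts from spermatocytes onward (Olfr212) and the one with the lowest KO over WT ratio in late spermatocytes (Olfr183). The sequences are RefSeq's for build GRCm38.p6, the 250 bases before the start site, 5′ to 3′ on the plus strand, at chr7:106813879-106814128, chr6:116506266-116506515 and chr16:58995154-58995403. Capitals mark letters of the motifs searched on both strands: the full cyclic AMP response element TGACGTCA, which the spermatid factor CREM binds, its short form TGACG, the core of the X box of RFX factors, written GTTGCC, and the TATA box, written TATAAA. The short form lies within the full one.
Olfr701: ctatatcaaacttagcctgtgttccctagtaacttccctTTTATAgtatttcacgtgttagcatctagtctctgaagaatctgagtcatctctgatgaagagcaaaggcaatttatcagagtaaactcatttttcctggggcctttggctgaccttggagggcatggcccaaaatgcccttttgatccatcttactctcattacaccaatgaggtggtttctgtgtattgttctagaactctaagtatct
Olfr212: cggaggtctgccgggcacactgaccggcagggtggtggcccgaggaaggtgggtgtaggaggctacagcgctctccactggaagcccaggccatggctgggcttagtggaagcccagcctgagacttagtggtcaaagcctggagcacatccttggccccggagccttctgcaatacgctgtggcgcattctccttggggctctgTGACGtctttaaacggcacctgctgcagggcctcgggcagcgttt
Olfr183: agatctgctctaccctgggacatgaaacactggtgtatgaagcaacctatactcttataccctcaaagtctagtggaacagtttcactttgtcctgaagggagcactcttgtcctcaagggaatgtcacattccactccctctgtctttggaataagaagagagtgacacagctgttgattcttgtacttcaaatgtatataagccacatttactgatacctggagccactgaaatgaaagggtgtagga
Olfr701 held 1 TATA box match, on the minus strand, Olfr212 held 1 match to the short response element and Olfr183 held none of the motifs. Of the 107 receptors with a RefSeq entry, 63 had the start codon as the listed start. Only 9 had a start that was not the start codon and lay within 50 bases of the GENCODE start. Among those 9, the short response element, the X box core and the TATA box were each found in 1 and the full element in 0. Of 30936 promoters of the same length, 18.4% held the short element, 10.4% the X box core, 11.4% the TATA box and 1.62% the full element. No match says only that the letters are absent from this window.

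The receptor UMIs were concentrated in a few genes. The 124 genes held 13661 UMIs in the KO library and 16602 in the WT library, with a median of 66 UMIs per gene over both. Olfr701 alone held 15.3% of them, with 2045 KO and 2573 WT UMIs. Olfr275 followed with 1081 and 1453, Olfr112 with 1214 and 1278, and Olfr303 with 698 and 1063. The 15 most abundant receptors together held 70.4%. Most members were thus rare transcripts, and 122 of the 124 had a UMI in both libraries.

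Receptor transcripts were densest in round spermatids, the haploid cells that have just left meiosis. Their summed level there was 194 CPM (185 to 203) in KO cells and 213 CPM (208 to 218) in WT cells. It was 72.4 CPM (66.2 to 79.1) in KO and 85.4 CPM (82.3 to 88.6) in WT late spermatocytes. In elongating spermatids, where the nucleus condenses, it was 108 CPM (102 to 115) in KO and 98.4 CPM (94.8 to 102) in WT cells. Both libraries gave the same order of these 3 classes. Spermatogonia held 101 CPM (81.0 to 125) in KO and 136 CPM (121 to 153) in WT cells. Early spermatocytes held 143 CPM (94.3 to 208) in KO and 76.9 CPM (55.2 to 104) in WT cells, from 27 and 41 receptor UMIs. With these classes included, round spermatids were highest in both libraries, but the order below them differed. Free RNA forms a background to all of this: empty-like barcodes held 154 CPM in the KO library and 153 CPM in the WT library, above the late spermatocytes and elongating spermatids. Free RNA was estimated at 4.99% of the receptor UMIs of KO round spermatids and 2.57% of those of WT round spermatids, and at 15.2% and 7.90% in late spermatocytes. In Sertoli cells, which should not share the germ cell program, the estimates were 86.7% and 96.4%, so receptor counts there are read as background.

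**Figure D1:**
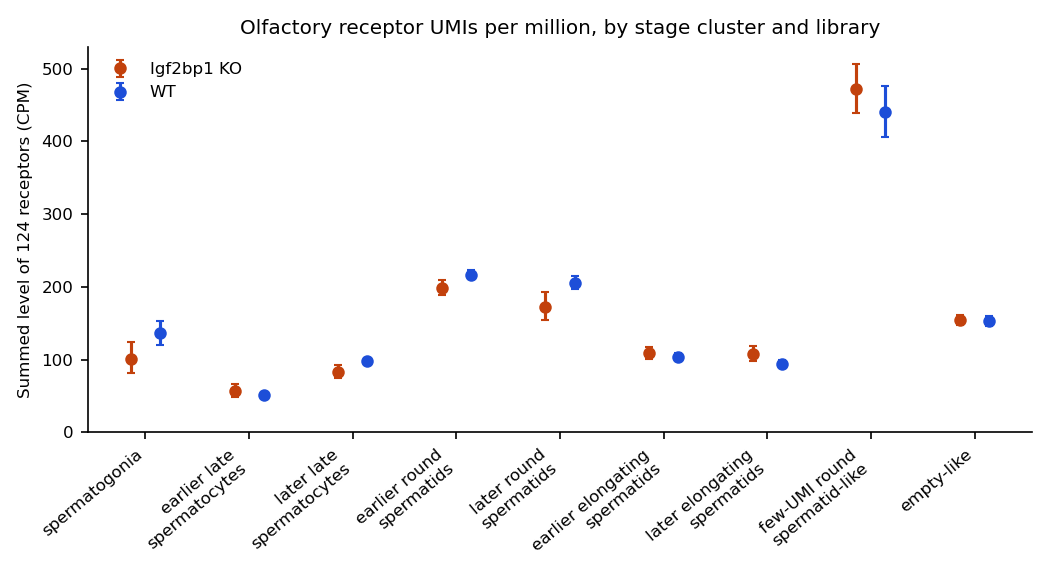
Summed level of the 124 receptors (CPM, vertical axis) in each stage cluster, in the few-UMI round spermatid-like barcodes and in empty-like barcodes. Points are 1 library each, Igf2bp1 KO left of WT, and bars are exact Poisson 95% intervals; among the stage clusters both libraries are highest in earlier round spermatids, at 199 and 217 CPM.

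Gene by gene, the peak fell on round spermatids for 61 receptors, on late spermatocytes for 33, on elongating spermatids for 10 and on spermatogonia for 1. A class could be the peak only if the receptor had at least 10 UMIs there, and the other 19 had under 10 in every class that could be compared. Spermatogonia held 860109 KO and 2073661 WT UMIs of all genes, against 9292630 and 31532049 in round spermatids. A rare receptor could therefore hardly peak in spermatogonia, and the count there is not set against the others. The class with the highest CPM was also taken in each library alone, with Sertoli cells included and without the limit of 10 UMIs. It was the same in both libraries for 60 of the 105 receptors with a peak. A few UMIs in a class with a small total can decide it, so this count does not measure agreement of the peaks.

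Olfr701 marked the start of the round spermatid stage. It had 46.9 CPM in KO and 50.04 CPM in WT earlier round spermatids, 19.3 and 33.0 CPM in later round spermatids, and 5.80 and 3.32 CPM in later elongating spermatids. A transcript was found in 220 of 444 KO round spermatids (49.5%, 44.8 to 54.3) and in 679 of 1043 WT round spermatids (65.1%, 62.1 to 68.0), at median depths of 17704.5 and 24114 UMIs. The cells thus differed in depth, and no order is read from these shares, since the levels of 41.5 CPM (37.5 to 45.9) in KO and 44.5 CPM (42.2 to 46.9) in WT round spermatids have overlapping intervals. Of the empty-like barcodes, with medians of 1463 UMIs in KO and 1110 in WT, 4.31% and 2.91% had an Olfr701 transcript.

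Other receptors came earlier. Olfr25 was found mainly in earlier late spermatocytes, with 4.72 CPM in KO and 4.61 CPM in WT cells, against 0.134 and 0.234 CPM in earlier round spermatids. Olfr161 had 3.63 and 2.41 CPM in earlier late spermatocytes and 0 and 0.234 CPM in earlier round spermatids. Olfr24 appeared in later late spermatocytes, at 8.71 CPM in KO and 12.5 CPM in WT, and stood at 16.98 and 16.5 CPM in earlier round spermatids. By elongating spermatids it was down to 0.99 and 0.55 CPM. Olfr25 was named after its values were seen.

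A late group was led by Olfr303 and Olfr1389. Olfr303 had 3.21 CPM in KO and 4.17 CPM in WT earlier round spermatids, and 20.3 and 22.6 CPM in earlier elongating spermatids. Olfr1389 had 1.60 and 0.891 CPM in earlier round spermatids, and 26.8 and 19.7 CPM in later elongating spermatids. Olfr275 stayed near one level from earlier round spermatids (15.0 and 17.2 CPM) to later elongating spermatids (17.1 and 17.9 CPM). It overlaps another gene on the same strand, so its reads may be shared.

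**Figure D2:**
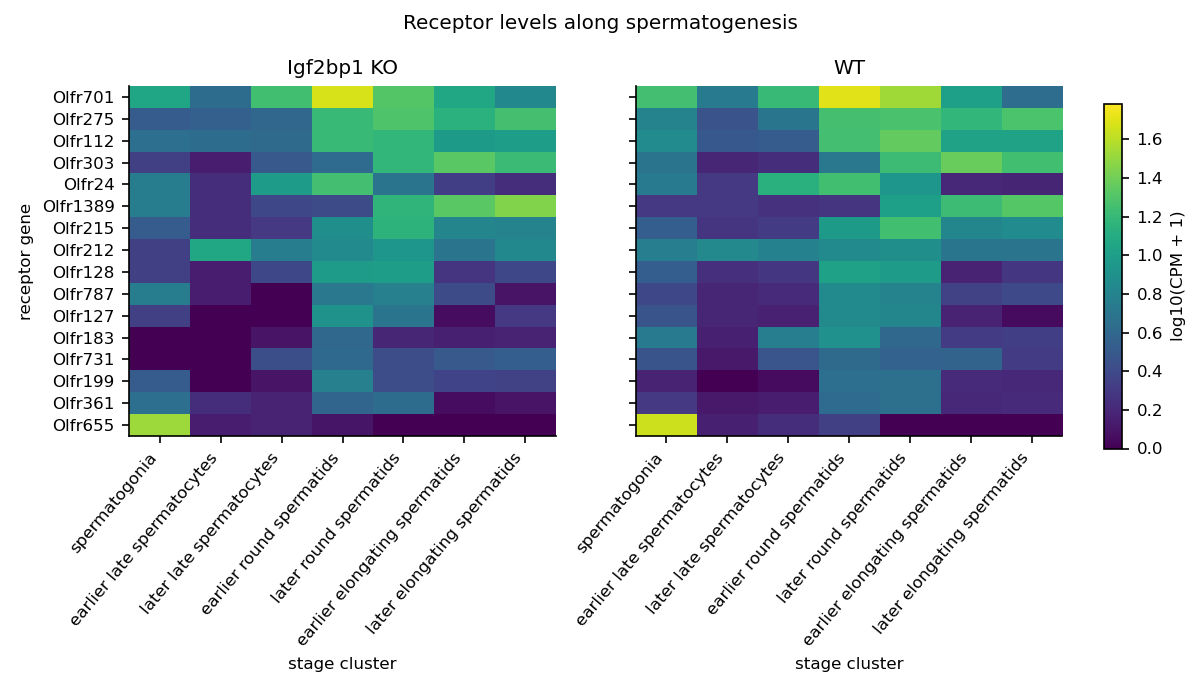
Level of the 15 most abundant receptors and of Olfr655 (rows) in 7 stage clusters (columns), as log10(CPM + 1), with the Igf2bp1 KO library on the left and the WT library on the right. Olfr701 and Olfr24 are brightest in earlier round spermatids, Olfr303 and Olfr1389 in elongating spermatids and Olfr655 in spermatogonia.

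Olfr655 was the one receptor that peaked in spermatogonia, at 32.6 CPM (21.6 to 47.0) in KO and 43.9 CPM (35.3 to 53.9) in WT cells. Its transcripts came from few cells, 4 of 115 KO and 13 of 190 WT spermatogonia, with up to 17 and 27 UMIs in a single cell. The log2 KO over WT ratio was -0.43 (-1.10 to 0.19), which leaves the direction unsettled. A peak class needed at least 50 cells in each library, and early spermatocytes had only 35 in KO. In them Olfr655 had 31.8 CPM (11.7 to 69.2) in KO and 9.38 CPM (3.04 to 21.9) in WT cells, from 6 and 5 UMIs. It is thus not shown to be limited to spermatogonia.

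A different receptor was found in Leydig cells, the source of testosterone outside the tubules. Olfr889 had 75 UMIs in 383 KO Leydig cells (30.6 CPM, 24.0 to 38.3) and 6 UMIs in 45 WT Leydig cells (17.8 CPM, 6.52 to 38.7). It was found in 14.6% of the KO and 11.1% of the WT Leydig cells. In KO and WT round spermatids it had 0.22 and 0.13 CPM, and in empty-like barcodes 1.03 and 0.16 CPM. Olfr920 had 8.15 CPM (4.98 to 12.6) in KO and 8.88 CPM (1.83 to 26.0) in WT Leydig cells. It was not limited to them, with 9.57 CPM (1.97 to 28.0) in KO and 11.1 CPM (0.28 to 61.6) in WT myoid cells, from 3 UMIs and 1 UMI, and 6.24 CPM (1.70 to 15.98) in KO macrophages. Over all barcodes Olfr889 had 264 KO and 23 WT UMIs. Mixed barcodes held 160 of the KO and 3 of the WT UMIs, and the part of cell and barcode numbers in the gap was not tested. Both genes were named after their values were seen.

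Some single cells held more than one receptor. With every cell thinned to 5000 UMIs, at least 1 receptor UMI was found in 58.3% (53.4 to 63.1) of 410 KO and 62.8% (59.8 to 65.8) of 1012 WT round spermatids. More than 1 receptor were found in 23.7% and 26.8% of them, and up to 4 and 5 in a single cell. In late spermatocytes of the same depth 6.46% of KO and 7.13% of WT cells held more than 1, and in elongating spermatids 8.17% and 7.88%. In round spermatids thinning left out 34 KO and 31 WT cells that were shallower. Without thinning the shares with any receptor were 88.7% and 95.8%, and up to 20 and 25 receptors were found in 1 barcode. Doublets were not removed and free RNA adds to such counts, and their part in them was not tested.

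A set of barcodes with few UMIs but round spermatid markers carried the highest receptor level. The 720 KO and 687 WT barcodes, with medians of 1955 and 1725 UMIs, held 472 CPM (439 to 507) and 440 CPM (406 to 477) of receptor transcripts. Olfr112 had 68.3 CPM in KO and 59.2 CPM in WT few-UMI barcodes, and 14.9 and 18.3 CPM in round spermatids. Olfr24 had 62.1 and 45.7 CPM there. Olfr701 went the other way, at 20.7 and 17.1 CPM. A rise in these barcodes was not particular to receptors. Of all 11719 features with at least 10 UMIs there, 25.4% were at least 2-fold over round spermatids in both libraries and 0.708% at least 2-fold under. That limit favours features that are high there. The nuclear RNA Malat1 was also high in these barcodes, at 5868 and 5432 CPM, against 1108 and 720 CPM in round spermatids, and its part in the receptor level was not tested.

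**Figure D3:**
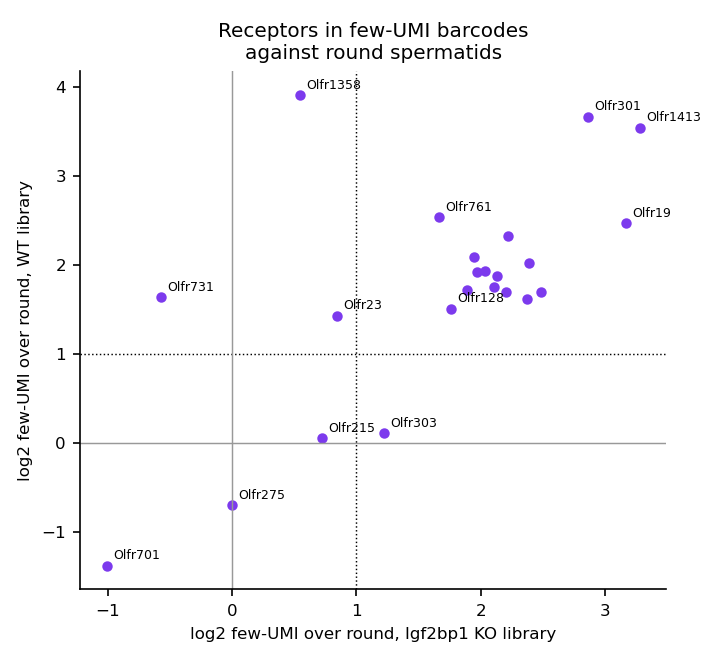
Log2 ratio of few-UMI round spermatid-like barcodes over round spermatids for the 23 receptors with at least 10 UMIs in the few-UMI barcodes, in the Igf2bp1 KO library (horizontal) and the WT library (vertical). Dotted lines mark 2-fold. A receptor is shown only if it reached 10 UMIs in these barcodes, which favours receptors that are high there, so nothing is read from how many lie past the lines; Olfr701 lies at the lower left.

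Between the genotypes the summed receptor level differed by less than 2-fold in the germ cell classes. Its log2 KO over WT ratio was -0.24 (-0.38 to -0.10) in late spermatocytes, -0.14 (-0.21 to -0.06) in round spermatids and 0.14 (0.04 to 0.24) in elongating spermatids. In spermatogonia it was -0.43 (-0.79 to -0.08), from 87 KO and 282 WT receptor UMIs. In early spermatocytes, with 35 KO and 79 WT cells, 27 and 41 receptor UMIs gave 0.90 (0.14 to 1.63). Free RNA was estimated at 26.8% of the receptor UMIs of KO and 11.2% of those of WT spermatogonia, and its part in the ratio was not tested. The value in elongating spermatids turned to -0.05 with TMM scaling, which shifts elongating spermatids by 0.19. The medians of the receptors with at least 20 UMIs were -0.42 in late spermatocytes, -0.16 in round spermatids and 0.24 in elongating spermatids, beside 0.03, 0.03 and 0.19 for all features. The late spermatocyte values depended on how cells were named: with each cell named by its own markers the summed ratio was -0.02 and the median 0.04.

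In late spermatocytes 37 receptors had 20 UMIs, and 2 were at least 2-fold higher and 7 at least 2-fold lower in KO cells, where 3.44% and 2.97% of all features were. In round spermatids 1 of 50 was higher and 5 were lower, beside 3.43% and 1.98% of all features. In elongating spermatids 2 of 21 were higher and 1 was lower, beside 5.6% and 0.958%. Receptors are rare transcripts, and rare features pass 2-fold more often: among features with 20 to 99 UMIs, 11.3% were higher and 8.95% lower in late spermatocytes, 10.5% and 6.15% in round spermatids, and 12.8% and 2.36% in elongating spermatids. Of the 9 past 2-fold in late spermatocytes, the interval left out 0 for 2, and of the 6 in round spermatids for 4.

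**Figure D4:**
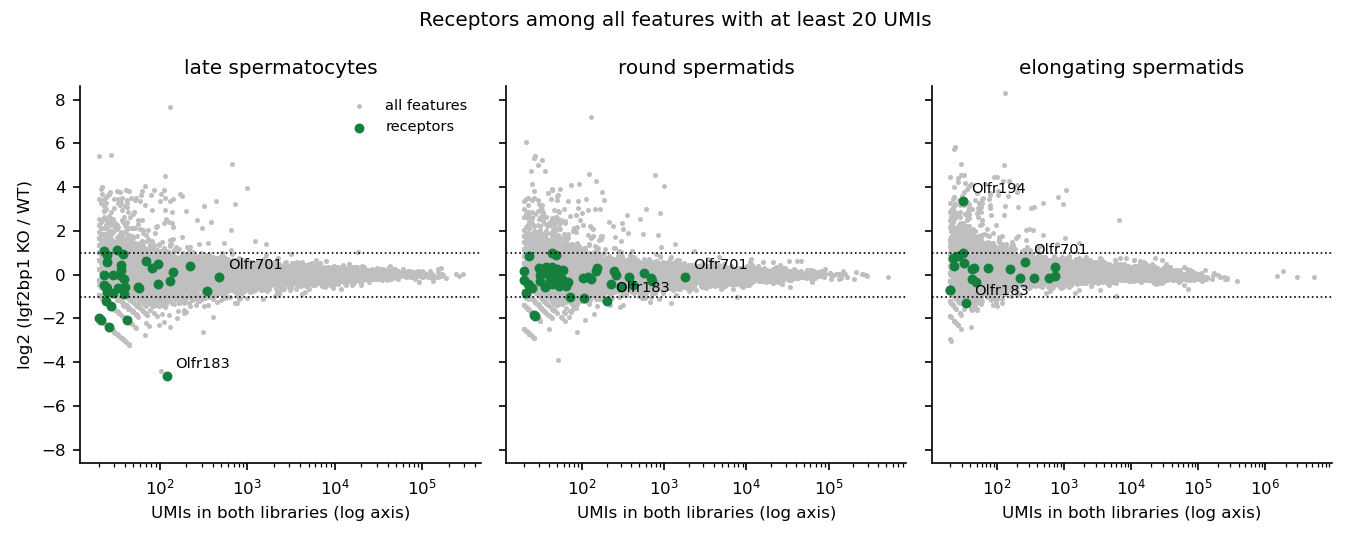
Log2 Igf2bp1 KO over WT ratio (vertical) against UMIs in both libraries (horizontal, log axis) for every feature with at least 20 UMIs in the class (grey) and for the receptors among them (green). Dotted lines mark 2-fold; Olfr183 lies below the lower line in all 3 classes and Olfr194 above the upper line in elongating spermatids.

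Olfr183 was lower in KO cells of all 3 classes. It had 1 UMI (0.145 CPM) in KO and 119 UMIs (3.62 CPM) in WT late spermatocytes, a log2 ratio of -4.64 (-9.95 to -2.13). In round spermatids it had 23 UMIs (2.48 CPM) in KO and 178 UMIs (5.65 CPM) in WT cells, a log2 ratio of -1.19 (-1.88 to -0.56). In elongating spermatids 5 KO and 30 WT UMIs gave -1.29 (-3.01 to 0.09). Whether the ratio differed between the stages was not tested.

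Olfr194 showed the opposite. It had 25 UMIs (2.25 CPM) in KO and 6 UMIs (0.22 CPM) in WT elongating spermatids, a log2 ratio of 3.35 (2.03 to 4.93). Empty-like barcodes gave the same direction, with 1.37 CPM in the KO library and 0.156 CPM in the WT library. Its closest copy in coding sequence is Olfr203, at 96.3% identity, which had no UMI in either library.

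Both genes belong to one run of 24 receptor genes on chromosome 16, chr16:58759544-59363993 in build mm10 (GENCODE annotation), of which 9 passed the limit and 7 had no UMI. Over all barcodes 5 of the 9 were at least 2-fold lower and 3 at least 2-fold higher in the KO library. Of all features with at least 20 UMIs, 0.827% were lower and 20.9% higher. The same totals chose the 9 genes, which favours a large ratio in a gene near the limit, such as Olfr195 or Olfr209. Mixed barcodes are part of these totals, with 49.1% of the KO and 7.56% of the WT receptor UMIs. The counts among the 9 are thus a description only. The lower and the higher genes lie in the same run, which ends with Olfr209, one of the higher ones. No pattern is read from their order, since Olfr195 stands at the limit with 20 UMIs. The strain of the animals is not given, and genotype, animal and any difference in strain between them cannot be told apart. Olfr180, Olfr181, Olfr183, Olfr190 and Olfr195 were lower, with 14, 30, 131, 20 and 2 KO UMIs against 35, 95, 430, 52 and 18 WT UMIs. Olfr193 had 62 KO and 24 WT UMIs and Olfr194 had 92 and 15. Olfr209 had 23 UMIs in the KO library and 0 in the WT library, at least 9.48-fold higher with WT set to 3 counts. Olfr199 lay between them with 214 KO and 170 WT UMIs. Olfr180 and Olfr181 overlap on the same strand, so their reads cannot be told apart with certainty. Olfr180, Olfr190, Olfr193 and Olfr209 were named after their values were seen.

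**Figure D5:**
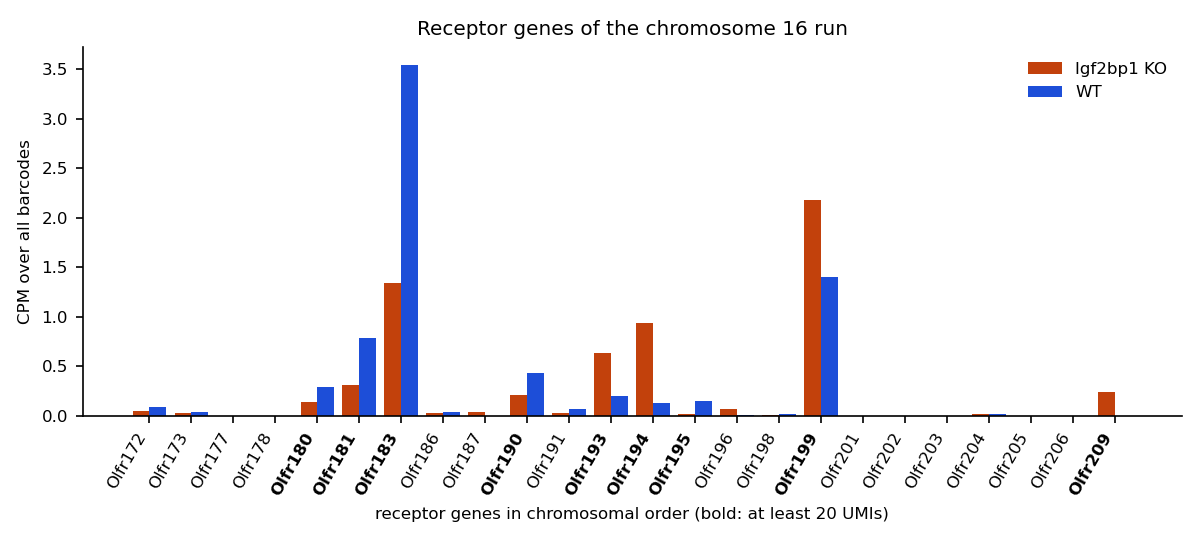
Level over all barcodes (CPM) of the 24 receptor genes of the chromosome 16 run in chromosomal order, Igf2bp1 KO bars left of WT bars. The 9 genes with at least 20 UMIs are in bold; Olfr183 is taller in WT, and Olfr193, Olfr194 and Olfr209 are taller in KO.

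Over late spermatocytes and both spermatid classes together, 91 receptors had 20 UMIs, and 2 were at least 2-fold higher and 12 at least 2-fold lower in KO cells, beside 4.24% and 2.18% of all features, or 14.7% and 7.59% of features with 20 to 99 UMIs. Both that were higher, Olfr193 and Olfr194, and 3 that were lower, Olfr180, Olfr181 and Olfr183, lie in the chromosome 16 run. Of the 14 receptors past 2-fold, the interval left out 0 for 8. The mix of classes in these summed counts differed between the KO and WT libraries. Late spermatocytes gave 6888387 of 27304628 KO UMIs and 32903766 of 91710062 WT UMIs of all genes. Elongating spermatids gave 11123611 KO and 27274247 WT UMIs. The part of this class mix in the ratios and counts given here was not tested. Without the chromosome 16 run 9 were past 2-fold in place of 14. That run had 7 measured receptors. Elsewhere, none of 11 measured receptors passed 2-fold in the run of 15 members on chromosome 9. In the run of 12 members on chromosome 14, 2 of 9 were lower, Olfr735 and Olfr1507. A run of 12 members on chromosome 7 had 2 of 9 lower, Olfr644 and Olfr655. A run of 6 members on chromosome 2 had 2 of 5 lower, Olfr1279 and Olfr1284. Olfr1507 had 0 KO and 26 WT UMIs, and Olfr46 had 16 and 115, a log2 ratio of -1.10 (-1.95 to -0.34). Olfr1507, Olfr46, Olfr735, Olfr644, Olfr1279 and Olfr1284 were named after their values were seen.

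Among the other named receptors, in round spermatids Olfr701 had a log2 ratio of -0.10 (-0.27 to 0.06), Olfr24 of 0.08 (-0.21 to 0.37), Olfr303 of -0.57 (-1.03 to -0.12) and Olfr215 of -0.47 (-0.85 to -0.10). Olfr23 was 2-fold lower at -1.06 (-2.02 to -0.22), with 13 KO and 92 WT UMIs. Olfr1090 stood at 1.01 (0.02 to 1.95), with 16 and 27 UMIs, and Olfr652 at 0.90 (-0.05 to 1.79). In late spermatocytes Olfr24 was lower at -0.76 (-1.28 to -0.27), with 38 KO and 307 WT UMIs. Olfr1392 had 2 and 40 UMIs there, a log2 ratio of -2.07 (-5.16 to -0.12), and Olfr212 stood at 0.38 (-0.11 to 0.85). In elongating spermatids Olfr701 stood at 0.56 (0.18 to 0.93) and Olfr1389 at 0.35 (0.12 to 0.57).

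The partners that receptors use in the nose were present at different levels. Gnal had 1.94 CPM in KO and 2.00 CPM in WT round spermatids. Omp, the marker protein of mature olfactory neurons, had no UMI in the germ cell classes. In round spermatids 14 of the 21 olfactory signalling genes in the files had 20 UMIs, with a list median of 0.06 on the log2 scale. Of these, 2 were at least 2-fold higher and 0 lower in KO cells, beside 3.43% and 1.98% of all features. Among features with 20 to 99 UMIs the shares were 10.5% and 6.15%. Cngb1, a subunit of the channel gated by cyclic nucleotides, was one of the 2 higher genes. It had 43 KO UMIs (4.63 CPM) and 63 WT UMIs (2.00 CPM), a log2 ratio of 1.21 (0.62 to 1.79). The other was Camk2d, a protein kinase subunit, with 8 KO and 13 WT UMIs and an interval that includes 0. In spermatogonia 11 genes of this list had 20 UMIs, 1 was higher and 1 lower in KO cells, beside 2.72% and 4.44% of all features, and the median was 0.13. The higher one was Ric8a, a chaperone of G protein subunits, at 1.52 (0.48 to 2.57), with 19 KO and 16 WT UMIs. The lower one was Pde1c, a phosphodiesterase that breaks down cyclic nucleotides, at -1.39 (-2.13 to -0.72).

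The list of sperm signalling genes held abundant and rare transcripts. Adcy10, the soluble adenylyl cyclase of sperm, had 249 CPM in KO and 235 CPM in WT round spermatids, and Catsper4, a subunit of the sperm calcium channel, 200 and 218 CPM. For this list and those below, the shares of all features past 2-fold in round spermatids were 3.43% higher and 1.98% lower. Among features with 20 to 99 UMIs they were 10.5% and 6.15%. Of 12 measured genes of the sperm signalling list, 1 was higher and 1 lower in round spermatids, with a median of 0.01. The higher one, the G protein subunit gene Gnaq, had 9 KO and 15 WT UMIs. The lower one was Gna14, a G protein subunit, at -1.19 (-2.20 to -0.32). Among the factors of haploid transcription, Crem had 450 CPM in KO and 461 CPM in WT round spermatids, and 1 of 13, Bcl6b, was higher at 1.32 (0.61 to 2.03), beside a list median of -0.06. Of 9 measured export and folding genes, none passed 2-fold in round spermatids. The list includes the Reep family that helps receptors reach the membrane. In elongating spermatids, where 5.6% of all features were higher, or 12.8% of those with 20 to 99 UMIs, 2 of 9 were higher. Hspa8, a chaperone, was one of these at 1.498 (1.05 to 1.95), and Reep3, with 9 KO and 11 WT UMIs, was the other. The list medians were 0.11 in round and 0.28 in elongating spermatids. Of 14 measured genes of receptor choice, 1 was higher in round spermatids and none was lower, with a median of 0.11. It was Ebf1, a transcription factor of olfactory neurons, with 22 KO and 7 WT UMIs. Ebf1 was also one of the markers used to name B lymphocytes, a class with 348 KO and 0 WT barcodes. Its 2988 UMIs over all named and unnamed cells lay mostly outside the germ cell classes. The part of free RNA from other cells in its ratio was not tested. Camk2d, Ric8a, Gnaq, Reep3 and Ebf1 were named after their values were seen.

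Gene structure was read from the annotation. By GENCODE, 121 of the 124 (97.6%) have a transcript with more than 1 exon, beside 89.5% of the 970 other receptor genes. Most of the family thus shares this trait, and the part of annotated exons in reaching 20 UMIs was not tested. For 24 of them another receptor gene is at least 95% identical over the coding sequence, among them Olfr127 and Olfr128 (96.4%), so reads may be split between such copies. Counted separately, so that a gene may fall in more than 1 group, 16 of the 124 overlap a gene on the same strand and 8 a gene on the other strand. Other chemoreceptor families were present to different extents: 26 of 206 Vmn1r and 21 of 123 Vmn2r pheromone receptor genes reached 20 UMIs, and none of 15 Taar and none of 35 Tas2r genes did. Of the 3 Tas1r genes 2 did. Tas1r1, a taste receptor subunit, had 5703 UMIs, more than any olfactory receptor.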

How the data were processed

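According to the labels' protocols, testis tissue was dissociated with enzymes and run through droplet capture before sequencing. Cell Ranger 2.2.0, STAR and build mm10 are named in the submitters' processing notes; software version 3.1.0 stands in the matrix headers. The deposited values are raw UMI counts per gene and barcode, whole numbers per the file headers. How barcodes were called as cells, and whether counting used strand, is not stated there.

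Barcodes under 500 UMIs, under 250 genes or above 20% mitochondrial UMIs were removed, which kept 17703 KO and 17002 WT barcodes. Both libraries were clustered together (scanpy 1.11.5, leidenalg 0.10.2; 2000 variable genes without olfactory receptors, 30 components, 15 neighbours, resolution 1) and named from marker lists; these names rest on numeric limits chosen once the data had been seen. No doublet caller was run and no doublet was removed. Clusters with somatic signal that missed the limits for a somatic name were set aside as mixed. So were deep clusters with little somatic signal whose germ cell score was weak. A mixed cluster of the second kind held 659 KO and 225 WT barcodes, with the meiotic genes Hormad1 and Sycp3 among its leading genes. Counts were summed per library and class. Levels have exact Poisson, shares exact Clopper-Pearson and KO over WT ratios exact conditional binomial 95% intervals (scipy 1.17.1). A library at 0 was set to 3 counts. Called means past 2-fold with at least 20 UMIs in the class. Free RNA was taken from the lowest decile of barcodes. edgeR 4.0.16 and DESeq2 1.42.0 gave only alternative scaling factors. The ratio code was tested on simulated data.

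The receptors, lists and tests were chosen with earlier results of these data known. Named receptors are the 15 with most UMIs, the 4 highest and 4 lowest ratios per class by the interval bound nearest 0, those peaking outside late spermatocytes and spermatids, and those nearest the limit; from the pathway lists, up to 4 genes with most UMIs and those past 2-fold with 50 UMIs. GENCODE M21 matched 31011 of 31053 IDs.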

Additional observations from a re-analysis of the deposited data

Results flagged for a closer look

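The summed receptor level had intervals on opposite sides of 0 in different stages. Its log2 KO over WT ratio was -0.43 in spermatogonia, -0.24 in late spermatocytes and -0.14 in round spermatids, and it was 0.90 in early spermatocytes, from 27 KO and 41 WT receptor UMIs, and 0.14 in elongating spermatids. The difference between stages was not tested, since each genotype has 1 library.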

How the results depend on the processing

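No paired analysis was possible because each genotype has 1 library. Limits: counting error is the only error measured, and most receptors have few UMIs. A median was taken as unmoved within 0.1, a tolerance chosen after seeing the data. The alternatives that leave out receptors were also added then. The number of receptors was 188 with a limit of 10 UMIs and 74 with 50. In late spermatocytes the summed log2 ratio was -0.0238 with each cell named by its own markers and -0.45 with the cell with most UMIs of each gene left out, which removes a larger share from the library with fewer cells and gave -0.21 in round spermatids. With TMM and median-of-ratios factors the sum in elongating spermatids reversed to -0.0541 and -0.0557. Over the classes together the sum was 0.0276 and 0.0268 with these and 0.0076 with cells weighted equally. The count past 2-fold in late spermatocytes, 9, was 3 at Leiden resolution 2, 14 with cells weighted equally, 16 with a minimum of 10 UMIs, 1 with 50 and 20 at 1.5-fold. That in round spermatids, 6, was 16, 3 and 10 under the last 3. That in elongating spermatids, 3, was 6, 0 and 7 under them, 5 with cells named by their own markers and 0 without the chromosome 16 run. That over the classes together, 14, was 22 with cells weighted equally, 6 with a minimum of 50 UMIs, 36 at 1.5-fold and 9 without the chromosome 16 run. The receptor median in late spermatocytes was 0.037 with cells named by their own markers, -0.28 at resolution 2, -0.20 with cells and -0.27 with clusters weighted equally, -0.16 with a minimum of 10 and -0.19 with 50 UMIs, and -0.24 without the chromosome 16 run. The median was -0.27 in round spermatids with cells weighted equally. In elongating spermatids it was 0.05 with TMM and 0.0484 with median-of-ratios factors, 0.0817 with clusters weighted equally and 0.0927 with a minimum of 50 UMIs. Over the classes together it was -0.31 with cells weighted equally and -0.0915 with a minimum of 50 UMIs. Receptors peaking in elongating spermatids numbered 6 with clusters weighted equally. Olfr655 over the classes together reversed to 0.29 with cells named by their own markers. The cause of these shifts was not tested. Thinned to 2000 UMIs, a receptor was found in 15.1% of KO and 16.5% of WT late spermatocytes, 29.1% and 34.7% of round and 19.2% and 16.5% of elongating spermatids; without thinning the shares were 61.6% and 76.8%, 88.7% and 95.8%, and 73.1% and 71.1%.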
